A study of Homo sapiens with 26 samples.

Results

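The acetylated coding promoters described here are the places in the genome of HCT116 cells where each of 10 H3K27ac peak lists held a peak at the promoter of a protein-coding gene. Peaks of the 10 lists that shared at least 1 bp were merged into 87608 regions. A region was kept where all 10 lists had a peak in it and where it overlapped the window from 1000 bp upstream to 200 bp downstream of a protein-coding start site (GRCh37, hg19, with start sites from GENCODE). These conditions kept 10611 regions, called members below, which were 12.1% of the merged regions and 56.6% of the 18757 regions that all 10 lists shared. Presence of a peak chose the members, so their levels and widths are given as descriptions, without a test. In any list, 12841 regions overlapped a coding promoter, and 82.6% of them were members.

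HCT116 is a human colorectal carcinoma line with functional p53, and Nutlin-3a is a small molecule that blocks the binding of MDM2 to p53 and so stabilizes p53. In the parental line (WT below), H3K27ac was profiled after DMSO, the vehicle (0 h), and after 1 h and 10 h of Nutlin3a, and H3K4me1 was profiled at the same 3 times. In HCT116_RAD21, a derivative of HCT116 (RAD21 line below), H3K27ac was profiled after DMSO (0 h) and after 1 h of Nutlin3a. Each of these groups had 2 lists, numbered BR1 and BR2 in the labels, which gave 10 H3K27ac and 6 H3K4me1 lists. In the RAD21 line the peak names of 0 h BR2 contain BR2_BR3 and those of 1 h BR2 contain a 3. Whether replicates of that line were pooled or renumbered is not stated, and the labels were followed. In the study's methods every allele of the cohesin subunit RAD21 in this line carries an auxin-inducible degron. The study's text places RAD21 degradation, induced with 5-Ph-IAA, before Nutlin-3a in the cells of this line used for H3K27ac. The labels give only DMSO or Nutlin3a, and loss of RAD21, the degron and clonal history cannot be told apart in a difference between the lines. The study calls its replicates biological, and the labels do not say whether BR1 and BR2 were separate cultures, so p-values measure the spread between such lists.

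The lists held between 31640 and 49127 H3K27ac peaks, of which 25.5% to 38.5% lay in members, and the median peak at a member had a −log10 p between 86.3 and 396.75. Read depth is unknown from these files, so every strength below is a position within a list. Strength in a list was the −log10 p of the strongest peak of a region, turned into a percentile among the 18757 shared regions and, for testing, into a normal score, on which a change of 1 equals 1 SD of the scores in a list. In 3 lists (WT 0 h replicates 1 and 2 and WT 1 h replicate 1) the peak names lacked the word input that the other 7 carried. The peaks of those 3 lists were shorter, with a median length at members of 1415 to 1420 bp against 1971 to 2403 bp. The form of the peak name therefore moved with the WT comparisons: WT 10 h and WT 0 h were wholly split by it and cannot be told apart from it, whereas the RAD21 line had it the same in all 4 lists. Results with this form as an added term in the fit are given beside those it touched. Only WT 1 h had lists of both forms, so the difference between its 2 lists sets the term. With the term, WT 1 h enters comparisons with 0 h as replicate 1 alone. Comparisons of WT 0 h with WT 10 h or with the RAD21 line are then shifted by that 1 difference, which has no replicate. All changes were fitted with limma, and adjusted p-values are Benjamini-Hochberg values over all 18757 regions with a threshold of 0.05.

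H3K27ac is written by the acetyltransferases CBP and p300 on the nucleosomes next to active promoters and enhancers, and the bases around the start site itself are kept largely free of nucleosomes. Most promoters of this kind are CpG islands that serve broadly expressed genes, such as those for ribosomes, proteasomes, mitochondria, the cell cycle and chromatin. A bidirectional promoter is one CpG island from which a pair of genes runs in opposite directions. H3K4me1 marks enhancers and, at active promoters, the shoulders of the acetylated stretch, where H3K4me3 has replaced it in the centre.

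The promoter sequences of members that the results below turn on are printed here, each as the bases before the start site, 5′ to 3′ on the strand of the gene (GRCh37). Capitals mark, in whichever orientation they occurred, the motifs named for each gene. KAT7 (chr17:47865793-47866042, plus strand), an acetyltransferase gene that shares a promoter with FAM117A, belonged to the strongest bidirectional member and is shown for its ETS site (CCGGAAG), 41 to 35 bases before the start. RAB11B (chr19:8454994-8455243, plus strand), a small GTPase gene, was the strongest single member and is shown for GC boxes (GGGCGG) that begin 237 and 8 bases and a CCAAT box that begins 87 bases before the start. PHKB (chr16:47494992-47495241, plus strand), for a phosphorylase kinase subunit, was lower at 1 h in WT and has an ETS site that begins 83 bases before the start.
KAT7: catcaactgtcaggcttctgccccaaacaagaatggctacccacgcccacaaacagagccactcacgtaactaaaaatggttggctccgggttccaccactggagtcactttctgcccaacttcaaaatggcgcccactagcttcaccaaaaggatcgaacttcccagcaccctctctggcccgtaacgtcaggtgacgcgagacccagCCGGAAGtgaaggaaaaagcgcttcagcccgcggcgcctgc
RAB11B: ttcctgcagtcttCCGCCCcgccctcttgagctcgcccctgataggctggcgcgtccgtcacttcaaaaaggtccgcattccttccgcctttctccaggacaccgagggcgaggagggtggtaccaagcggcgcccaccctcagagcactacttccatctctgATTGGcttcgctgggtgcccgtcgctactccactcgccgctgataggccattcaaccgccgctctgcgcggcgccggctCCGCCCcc
PHKB: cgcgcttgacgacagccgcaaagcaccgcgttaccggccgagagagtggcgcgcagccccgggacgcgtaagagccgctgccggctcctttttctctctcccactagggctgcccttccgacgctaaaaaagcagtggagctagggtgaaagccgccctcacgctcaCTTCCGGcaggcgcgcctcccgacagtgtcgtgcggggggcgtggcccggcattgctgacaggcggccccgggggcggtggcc

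Members that changed with Nutlin3a are shown for their cell-cycle motifs, placed by the number of bases from the first base of the motif to the start. MCMBP (chr10:121632356-121632605, minus strand), whose protein binds the MCM helicase, was higher at 1 h and has an E2F site (GCGGGAA) at 8. SPC25 (chr2:169746941-169747190, minus strand), a kinetochore gene that was lower at 10 h, has the cell-cycle homology region (CHR, TTTGAA) at 247, CCAAT boxes at 88 and 56 and an E2F site at 20. MCM3 (chr6:52149541-52149790, minus strand), a subunit of the MCM helicase that was also lower at 10 h, has E2F sites at 173 and 23 and CCAAT boxes at 242, 120 and 84. MKI67 (chr10:129924688-129924937, minus strand), the gene of the proliferation marker Ki-67, was lower at 10 h as well and has CHRs at 47 and 29 and CCAAT boxes at 98 and 24, where the downstream CHR and CCAAT box share a base.
MCMBP: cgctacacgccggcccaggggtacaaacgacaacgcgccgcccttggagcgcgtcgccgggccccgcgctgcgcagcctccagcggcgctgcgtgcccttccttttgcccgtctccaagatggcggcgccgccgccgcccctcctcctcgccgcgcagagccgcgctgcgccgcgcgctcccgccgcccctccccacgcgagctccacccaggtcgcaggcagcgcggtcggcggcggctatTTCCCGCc
SPC25: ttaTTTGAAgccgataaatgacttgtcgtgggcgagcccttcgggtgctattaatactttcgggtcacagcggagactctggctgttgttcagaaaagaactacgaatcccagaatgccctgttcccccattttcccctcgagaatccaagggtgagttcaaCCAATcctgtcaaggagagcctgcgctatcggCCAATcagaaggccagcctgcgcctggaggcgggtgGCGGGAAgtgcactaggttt
MCM3: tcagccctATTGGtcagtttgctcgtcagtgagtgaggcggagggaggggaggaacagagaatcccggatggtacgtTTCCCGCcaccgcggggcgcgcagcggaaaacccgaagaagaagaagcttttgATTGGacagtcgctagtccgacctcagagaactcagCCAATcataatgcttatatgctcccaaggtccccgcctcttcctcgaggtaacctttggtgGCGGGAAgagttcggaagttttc
MKI67: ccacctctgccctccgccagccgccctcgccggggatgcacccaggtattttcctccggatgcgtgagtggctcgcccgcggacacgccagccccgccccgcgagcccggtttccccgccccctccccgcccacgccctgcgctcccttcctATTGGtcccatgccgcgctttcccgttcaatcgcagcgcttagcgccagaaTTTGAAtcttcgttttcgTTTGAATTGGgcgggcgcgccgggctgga

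WDR54 shares its promoter with C2orf81, and this member was among those with the largest difference between the lines. The 67 bases before its start (chr2:74648790-74648856, plus strand) hold an X-box, the palindrome-like site that RFX factors bind in promoters of ciliary genes, 60 to 47 bases before the start.
WDR54: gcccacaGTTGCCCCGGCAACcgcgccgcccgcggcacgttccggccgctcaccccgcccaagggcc

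Among the members, 9017 (84.98%) covered the promoter of 1 coding gene, 1130 (10.6%) were bidirectional and 464 (4.37%) held several genes without a divergent pair. A bidirectional member was one in which the start sites of a minus-strand and a plus-strand gene diverged at most 1000 bp apart. Those start sites lay a median of 136 bp apart (quartiles 72 and 266 bp), with 413 pairs at most 100 bp and 233 over 300 bp apart. The members held the promoters of 11739 of 19798 coding genes (59.3%). Divergent gene pairs were mostly held whole: 1187 of 1293 annotated pairs (91.8%) had both genes at a member, and 93.3% of the 2510 genes in a pair were at a member against 54.4% of the 17288 genes in no pair. By chromosome the share of genes at a member was 68.0% on chromosome 16 and 43.2% on the X chromosome.

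Bidirectional members ranked above single ones in every list. Their median percentile per list was 76.2 to 79.2, that of single members was 61.9 to 66.4, and that of the 8146 shared regions without a coding promoter was 26.5 to 30.5. All members together had a median of 64.7 to 68.2. The distance between the paired starts made little difference to these medians, since pairs at most 100 bp apart had medians of 75.5 to 78.6 and pairs over 300 bp apart 75.5 to 80.3. Bidirectional members were also wider, with a median merged width of 3270.5 bp against 2572 bp for single ones, and 30.1% of them reached 4000 bp against 19.3% of single ones. A share of 7.35% of bidirectional members measured 1000 to under 2000 bp, against 25.8% of single members.

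**Figure D1:**
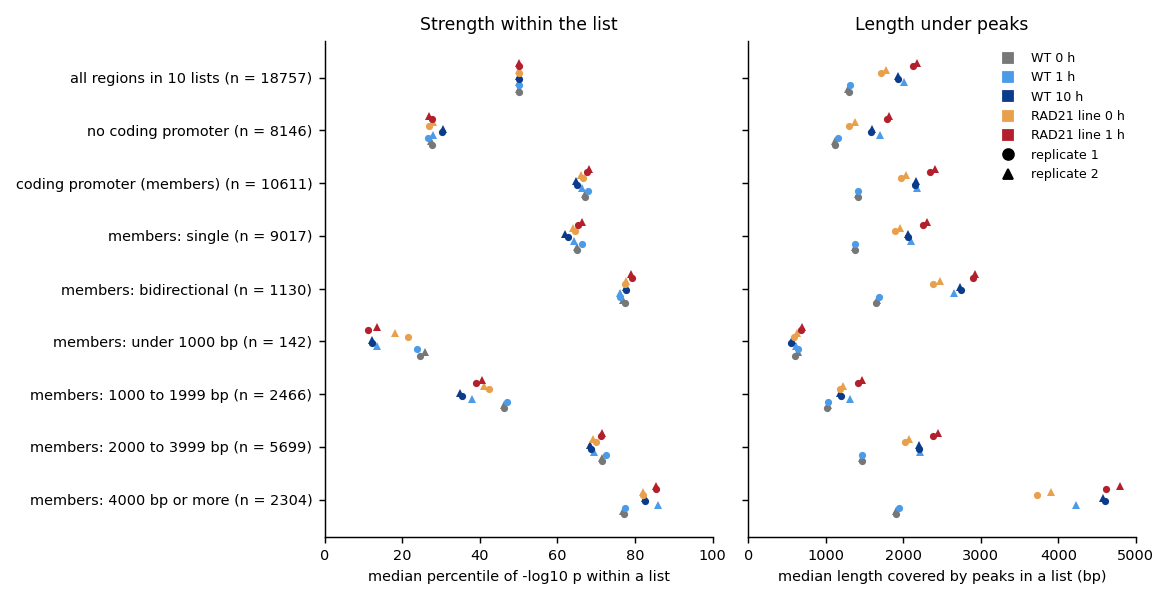
Median percentile within each list (left, x axis in percentile of −log10 p among the 18757 shared regions) and median length under peaks (right, x axis in bp) for the shared regions, the members and their classes, with 1 point per list coloured by group and shaped by replicate. Bidirectional members lie to the right of single members in all 10 lists on the left, and the 3 lists whose peak names lack the word input lie apart at shorter lengths on the right.

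RAB11B (member chr19:8453719-8457376) led the single members, and EIF1 and XBP1, genes of a translation start factor and of the transcription factor of the unfolded protein response, were among the 8 strongest with YWHAZ, ENDOV, COQ7, USP36 and FAM117A/KAT7. Their mean percentiles lay between 99.2 and 99.9. The FAM117A/KAT7 member (chr17:47864933-47867735), whose start sites are 32 bp apart, had percentiles of 99.0 to 99.98 over the 10 lists. Further strong bidirectional members were ALYREF/ANAPC11 (starts 61 bp apart), the SRSF2 cluster with METTL23, JMJD6 and MFSD11 (31 bp), NUP98/PGAP2 (27 bp) and PSENEN/U2AF1L4 (155 bp). The EEF1D cluster (87 bp), DCAF13/SLC25A32 (272 bp) and HES4/ISG15 (966 bp) completed the 8.

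Wider members ranked higher. By merged width, 142 members were under 1000 bp, 2466 were 1000 to under 2000 bp, 5699 (53.7%) were 2000 to under 4000 bp and 2304 were 4000 bp or more. The median percentile per list was 10.999 to 25.8 in the narrowest class, 34.9 to 47.0 in the next, 68.4 to 72.5 in the third and 77.0 to 85.8 in the widest. Scores of narrow members also varied most between the 2 lists of a group, with a median residual SD of 0.248 under 1000 bp against 0.135 over all members and 0.190 over the other shared regions. The longest members by median length under peaks were EZR (44239 bp), which encodes the membrane linker ezrin, the ATP5F1D/CIRBP/MIDN cluster (38507.5 bp), BCL2L1 (31322 bp), which encodes the survival protein BCL-XL, and SLC7A5 (30129 bp), an amino acid transporter gene. KCNN4/SMG9, the EEF1D cluster, PLEC and MYOF followed with 26735.5 to 27820 bp. The shortest were RPS6KA2 (367.5 bp), EGR4 (377 bp), CPEB3 (384 bp) and SIRT4 (389.5 bp). In PLEC, which encodes the cytolinker plectin, the percentiles were 43.5, 37.6 and 50.0 in the 3 lists named without input and 89.4 to 98.9 in the other 7, with no overlap between the forms of the name.

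Members near the threshold of the rule were few. The lowest −log10 q of a member over the 10 lists had a median of 64.1, and 261 members had a value under 5. Just inside stood NOL4L (1.34, at an internal start site), ABCC6 (1.36), IFI6 (1.45) and HIVEP3 (1.45). Just outside, 224 coding promoter regions were called in 9 of the 10 lists, and their lowest −log10 q had a median of 3.64. Among the strongest of those were IQUB, MAST4 and DNAH6, with mean percentiles of 61.1 to 68.3 among all peaks of the lists that held them.

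The strongest H3K27ac summit lay downstream of the start site at most single members and on either side of the pair at bidirectional ones. Over the 8596 single members with a canonical start, the summit was a median of 184 to 200 bp downstream, and 75.4% to 81.1% of summits were downstream, while 4.42% to 5.19% were within 100 bp of the start. At bidirectional members 43.4% to 46.1% of summits were past the plus-strand start and 47.7% to 48.9% past the minus-strand start. Between the paired starts lay 5.75% to 8.67%. Which gene of a pair lies on the plus strand is arbitrary, so this near-even split cannot show whether both sides of a pair are alike.

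H3K4me1 took no part in choosing the members, and its peaks overlapped nearly all of them. The overlap was seen at 10573 members (99.6%) in all 6 lists and at 4 members in none. The share of a member's length under H3K4me1 peaks had a median of 56.0% to 64.2% per list at bidirectional members, 81.9% to 100% at single members and 100% at the shared regions without a coding promoter. The gap in H3K4me1 was deepest at the middle of paired starts, where 28.1% to 40.2% of bidirectional members lay under a peak. At 1250 bp on either side, 82.5% to 88.0% (minus side) and 82.6% to 87.2% (plus side) did. At the start of single members 50.1% to 69.9% lay under a peak.

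**Figure D2:**
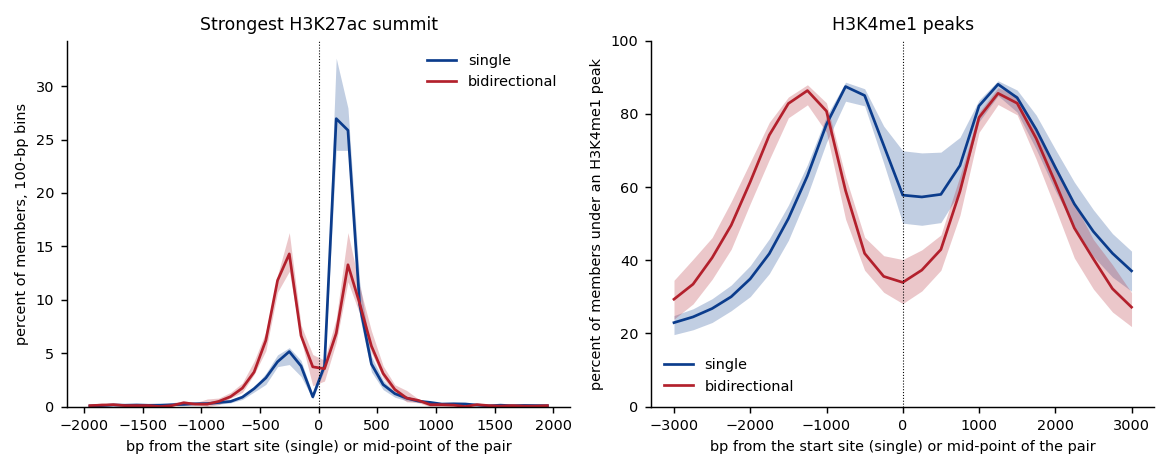
Percent of members whose strongest H3K27ac summit fell in each 100-bp bin (left) and percent of members under an H3K4me1 peak (right), against distance in bp from the start site of single members or the mid-point of paired starts. Lines are medians over lists and bands run from the lowest to the highest list. Summits of single members peak downstream of the start and those of bidirectional members on both sides, and H3K4me1 at the mid-point of pairs was found at 33.9% of members in the median list against 57.8% at single starts.

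After 1 h of Nutlin3a in WT, 1761 members were higher than at 0 h (16.6%, against 14.3% of all regions tested) and 1773 were lower (16.7%, against 14.8%). In the lists of DNA replication, homologous recombination and ribosome biogenesis, 26 of 57, 15 of 39 and 17 of 62 members passed as higher and fewer as lower. In those of Mediator, RNA polymerase II with TFIID, and autophagy and lysosome, 12 of 30, 12 of 33 and 21 of 54 passed as lower and fewer as higher. The median change was 0.002 over members and −0.007 over all regions tested. With the form of the peak name in the fit, WT 1 h is left with replicate 1 alone, so that fit is no replicated check of these calls.

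MCMBP (chr10:121630520-121633290) stood at percentiles 91.8 and 93.3 at 0 h, 99.96 and 99.91 at 1 h and 62.3 and 61.5 at 10 h, and in the RAD21 line at 92.2 and 91.3 at 0 h and 99.7 and 99.8 at 1 h. The 1 h lists of both lines were above all 0 h lists, and the 10 h lists were below every other list. Its change at 1 h was 1.80 ± 0.14 (SE, adjusted p = 4.29e-05, limma). FANCA (chr16:89880570-89884120), the Fanconi anaemia core gene, had percentiles of 78.4 and 78.8 at 0 h, 97.9 and 98.4 at 1 h and 65.6 and 68.6 at 10 h in WT, and 83.1 and 75.9 at 0 h and 99.3 in both lists at 1 h in the RAD21 line. It rose in WT by 1.30 ± 0.12 (adjusted p = 7.7e-05, limma) with the same order of groups. PA2G4 (chr12:56497094-56507114), a gene of ribosome assembly and growth control, went from 67.7 and 65.3 to 96.1 and 96.7 at 1 h, a change of 1.38 ± 0.12, and was at 69.0 and 73.5 at 10 h.

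TM7SF2 (chr11:64877971-64881253), which encodes a sterol reductase of cholesterol synthesis, was at 0.973 and 0.317 at 0 h, 29.5 and 47.4 at 1 h and 40.8 and 39.2 at 10 h, and between 49.0 and 59.3 in the RAD21 line. The WT 0 h lists alone were low, with a change of 2.23 ± 0.19 at 1 h (adjusted p = 4.29e-05, limma). An internal start of TXNRD2 (chr22:19866792-19870932) had the same form, at 1.5 and 0.882 at 0 h and 38.1 and 51.5 at 1 h, with a change of 2.14 ± 0.18.

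Among the members that fell, IRF9 (chr14:24628330-24631452), the DNA-binding subunit of the interferon-stimulated factor ISGF3, was at 80.4 and 81.9 at 0 h, 22.5 and 16.3 at 1 h and 81.4 and 74.7 at 10 h in WT. In the RAD21 line it was between 39.8 and 44.3 in all 4 lists. The WT 1 h lists were thus below all others, and the change was −1.75 ± 0.13 (adjusted p = 4.29e-05, limma). The bidirectional member of ITFG1 and PHKB (chr16:47493423-47497089, starts 21 bp apart) was at 98.6 and 98.0 at 0 h, 68.8 and 72.1 at 1 h and 95.6 and 95.0 at 10 h, a change of −1.58 ± 0.13. FBXO38 (chr5:147762653-147764961) went from 97.2 and 96.3 to 65.7 and 55.0, and TTC8 (chr14:89290087-89292015), a BBSome gene of the primary cilium, from 95.9 and 96.1 to 66.9 and 50.0, with changes of −1.58 ± 0.12 and −1.54 ± 0.14. At 10 h FBXO38 was again at 95.1 and 95.2 and TTC8 at 86.6 and 85.3.

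By function, 26 of 57 DNA replication members were higher and 2 lower at 1 h in WT, with a median change of 0.41. Of these calls, 18 higher and 0 lower held with every list left out in turn. Their extremes were MCMBP and DBF4, the activator of the CDC7 kinase (−0.47, adjusted p = 0.0162, limma). In the list of Fanconi and homologous recombination genes 15 of 39 members were higher and 4 lower, with FANCA highest. For ribosome biogenesis 17 of 62 were higher and 2 lower, from PNO1 (−0.70) to IMP3 (0.90, adjusted p = 0.000209). The mitochondrial ribosome had 20 of 74 higher and 6 lower, from MRPS18A (−0.82) to MRPL38 (1.37, adjusted p = 7.68e-05).

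In the other direction, 12 of 30 members of Mediator, the coactivator that joins enhancer-bound factors to RNA polymerase II, were lower and 1 higher, with a median of −0.31, from MED23 (−0.95, adjusted p = 0.0014, limma) to MED31 (0.62, adjusted p = 0.00678). For RNA polymerase II and TFIID 12 of 33 were lower and 1 higher, with a median of −0.25, from TAF7 (−1.07, adjusted p = 0.000135) to POLR2D (0.72, adjusted p = 0.0027). Of the 54 autophagy and lysosome members 21 were lower and 2 higher, with a median of −0.30, and 15 lower and 0 higher calls held with every list left out in turn. ATP6V0D1 and ATP6V1A, subunits of the proton pump of the lysosome, were its extremes (−0.96 ± 0.11, adjusted p = 0.000156, and 0.44, adjusted p = 0.0445). Interferon response members were lower in 11 and higher in 2 of 43, with IRF9 the lowest. Those of the integrated stress and unfolded protein response were lower in 11 and higher in 6 of 39, the lowest being CREBRF (−1.68 ± 0.15, adjusted p = 5.71e-05), a regulator of CREB3. These medians kept their sign under each of the other rankings and with the peak-name term, except that the median of the stress response list, −0.09, was 0.07 when ranked by fold.

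Width moved with these calls. Of the members of 4000 bp or more 645 were higher and 237 lower at 1 h in WT, with a median change of 0.180 that was 0.018 with the form of the peak name in the fit, and of those of 1000 to under 2000 bp 215 were higher and 473 lower. Bidirectional members had 179 higher (15.8%) and 226 lower (20.0%). The count of calls rested on the ranking by −log10 p: ranked by fold enrichment at the summit, 0 members passed in limma, with 2188 at an unadjusted p under 0.05. Ranked among all peaks of each list, 2025 were higher and 1141 lower.

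After 10 h of Nutlin3a in WT, 575 members were higher (5.42%, against 9.7% of all regions tested) and 1106 were lower (10.4%, against 8.56%). In the lists of DNA replication, mitosis and homologous recombination 30 of 57, 29 of 71 and 16 of 39 members passed as lower, and at p53 target genes 10 of 45 passed as higher. The form of the peak name is fully split between these groups, and with it in the fit, which then rests on the 1 h lists, 229 members were higher and 341 lower (2.06% and 2.34% of all regions tested). In both fits, 51 higher and 155 lower members were called. The comparison shares its 0 h lists with that at 1 h.

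SPC25 (chr2:169745986-169747074), of the kinetochore complex NDC80, was at 56.7 and 54.1 at 0 h, 46.0 and 47.6 at 1 h and 1.91 and 3.99 at 10 h, and between 40.2 and 45.3 in the RAD21 line. The 10 h lists were below all others, with a change of −2.05 ± 0.14 (adjusted p = 1.72e-05, limma). RBL1 (chr20:35722681-35725357), the gene of the pocket protein p107, was at 70.0 and 64.9 at 0 h and 14.8 and 18.2 at 10 h, against 68.8 to 76.5 in the remaining lists, a change of −1.43 ± 0.11 (adjusted p = 3.23e-05). MKI67 (chr10:129921980-129925631) was at 90.03 and 87.8 at 0 h and 41.2 and 40.1 at 10 h, against 91.5 to 96.2 elsewhere, a change of −1.46 ± 0.12 (adjusted p = 3.27e-05).

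MCM3 (chr6:52147944-52150417) moved in both directions in turn, from 77.5 and 83.3 at 0 h to 96.2 and 94.7 at 1 h and 31.3 and 28.0 at 10 h. In the RAD21 line it was at 54.6 and 53.3 at 0 h and 85.2 and 87.4 at 1 h. Its change at 10 h was −1.40 ± 0.12 (adjusted p = 3.79e-05, limma). MCMBP, highest at 1 h, had a change of −1.14 at 10 h (adjusted p = 0.000461).

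Of the 57 DNA replication members 30 were lower and 2 higher at 10 h, with a median change of −0.45, from PRIM1 (−2.06 ± 0.21, adjusted p = 0.000128, limma), a primase subunit, to POLD4 (0.85, adjusted p = 0.0101). In both fits 18 of them were lower and 0 higher, and with every list left out in turn 20 were lower and 0 higher. The list of mitosis and kinetochore had 29 of 71 lower and 4 higher (15 lower and 0 higher in both fits), from SPC25 to CDC25B (0.69), with a median of −0.29. Fanconi and homologous recombination had 16 of 39 lower and 0 higher (4 lower and 0 higher in both fits), with FANCI at −1.02 (adjusted p = 0.000571). Ranked among all peaks of each list, the median of all regions tested moved to 0.28 at 10 h, that of replication members was −0.13 and that of mitosis members 0.04. Relative to the median of all regions on that scale, these were −0.41 and −0.24.

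Set against 1 h, a comparison for which the lists named with input alone could also be used, 42 of the 57 replication members were lower at 10 h and 5 higher, and 44 lower and 4 higher with those lists alone. In that fit WT 1 h has 1 list, which is assumed to vary like the lists of the other groups, so it has no replicate check of its own. Homologous recombination members had 22 lower and 2 higher, and 23 and 1. Over all members 2410 were lower and 1586 higher than at 1 h (16.5% and 15.8% of all regions tested), and 2385 and 1902 with those lists alone (16.2% and 16.7%). Autophagy and lysosome members, lower at 1 h, had 27 higher and 3 lower at 10 h against 1 h.

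BCL2L1 (chr20:30277243-30312570) was among the members that were higher at 10 h, at 56.4 and 49.6 at 0 h, 76.6 and 83.6 at 1 h and 91.2 and 92.4 at 10 h, and between 83.5 and 96.7 in the RAD21 line. Its change was 1.32 ± 0.13 (adjusted p = 9.16e-05, limma), and the WT 0 h lists were the lowest. AJM1 (chr9:139731575-139739053), for an apical junction protein, was at 0.936 and 0.328 at 0 h and 29.9 and 28.2 at 10 h, with a change of 1.98 ± 0.22 (adjusted p = 0.000186). TM7SF2 had a change of 2.28 ± 0.19 (adjusted p = 3.27e-05), near that at 1 h. A coding gene named ENSG00000289761 in the annotation (chr4:41144255-41151501) was at 20.4 and 27.3 at 0 h, 29.7 and 51.0 at 1 h and 82.0 and 77.3 at 10 h, against 36.2 to 52.0 in the RAD21 line, a change of 1.55 ± 0.17.

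Members at p53 target genes in WT had 12 of 45 higher at 1 h, with 3 lower, and 10 higher at 10 h, with 0 lower. Of the calls at 10 h, 5 higher were made in both fits. With every list left out in turn, 2 higher calls remained at 1 h and 4 at 10 h. Most of this list had been examined in these samples before and is not independent evidence of a direction. CDKN1A (chr6:36643167-36655088), the gene of the cell-cycle inhibitor p21, was at 43.9 and 51.7 at 0 h, 52.4 and 74.5 at 1 h and 64.1 and 69.2 at 10 h, with changes of 0.41 ± 0.16 (adjusted p = 0.0722, limma) and 0.49 (adjusted p = 0.054). Its 0 h lists were below all later ones, and neither change passed the threshold. MDM2 (chr12:69200550-69206016), the ligase that Nutlin3a keeps from p53, was at 93.8 and 91.8, 98.0 and 98.5, and 95.6 and 90.6 at 0, 1 and 10 h, higher at 1 h by 0.65 ± 0.16 (adjusted p = 0.00984) and not past the threshold at 10 h (0.05, adjusted p = 0.858).

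AEN, for an apoptosis-enhancing nuclease, went from 96.4 and 93.7 to 99.8 and 99.2 at 1 h and 99.96 and 99.8 at 10 h, with changes of 0.94 ± 0.21 (adjusted p = 0.00552, limma) and 1.45 (adjusted p = 0.00111). PHLDA3, an inhibitor of AKT, was at 49.3 and 46.4 at 0 h and 89.7 and 87.4 at 10 h, a change of 1.26 ± 0.14 (adjusted p = 0.000225). POLH, the translesion polymerase eta, went from 36.2 and 31.7 to 52.0 and 57.8 and then 76.1 and 66.1, with changes of 0.54 (adjusted p = 0.00784) and 0.98 (adjusted p = 0.000617). RPS27L was past the threshold at 10 h (0.83, adjusted p = 0.00173) and not at 1 h (−0.08, adjusted p = 0.688). These genes differ in which time was past the threshold, and the difference between times was not tested for single genes.

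A p53 response element in the strict form searched lay in 0.0202% of all coding promoters and in those of 3 members. DDB2, a DNA damage recognition gene, changed by 0.54 at 1 h (adjusted p = 0.00914, limma) and 0.49 at 10 h (adjusted p = 0.0231). MCC changed by 1.37 (adjusted p = 0.00269) and 1.70 (adjusted p = 0.00182), from percentiles of only 0.243 and 0.973 at 0 h, and its lowest −log10 q was 3.12. At 1 h in the RAD21 line DDB2 changed by 1.14 (adjusted p = 7.38e-05, limma) and MCC by −0.25 (adjusted p = 0.528). With the form of the peak name in the fit neither DDB2 (adjusted p = 0.35) nor MCC (adjusted p = 0.111) passed at 10 h, and DDB2 did not pass without WT 0 h replicate 2 at 1 h (adjusted p = 0.0934) or without WT 10 h replicate 1 at 10 h (adjusted p = 0.206). PTCHD4 was at 9.63 and 5.29 at 0 h, 11.1 and 4.45 at 1 h and 53.4 and 57.8 at 10 h, and between 10.0 and 16.7 in the RAD21 line, so that the 10 h lists stood above all others, with a change of 1.60 (adjusted p = 0.000686, and 0.00133 with the form of the peak name in the fit).

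At 10 h the calls were split by width and by the form of the peak name. Members of 4000 bp or more had 401 higher and 51 lower, with a median of 0.182 that became −0.080 with the form of the peak name in the fit (42 higher, 149 lower), and members of 1000 to under 2000 bp had 18 higher and 518 lower. Bidirectional members had 59 higher (5.2%) and 68 lower (6.0%), single members 464 (5.1%) and 1012 (11.2%). Ranked by fold, 1036 members were higher and 1033 lower, and ranked among all peaks 3529 were higher and 179 lower.

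In the RAD21 line 1800 members were higher at 1 h than at 0 h (17.0%, against 14.4% of all regions tested) and 1387 lower (13.1%, against 13.4%). Of the proteasome members 24 of 32 passed as higher, as did 28 of 57 of DNA replication, 23 of 62 of ribosome biogenesis and 18 of 48 of the spliceosome core. Of immediate early genes 12 of 33 members passed as lower. Of the ciliary lists, which were drawn up after leading members of these data had been seen, 41 of 56 and 57 of 79 did. Without RAD21 1 h replicate 2 the members had 699 higher and 768 lower, and ranked among all peaks 1147 and 1145. At members the median −log10 p was 102.9 and 117.8 in the RAD21 0 h lists and 214.4 and 396.75 in the RAD21 1 h lists. The part of this difference in strength in the calls was not tested. All 4 lists of this comparison carried the word input in their peak names. Fitted on the 7 lists of that form alone, 2760 members were higher and 1915 lower (22.2% and 18.6% of all regions tested).

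PNPLA2 (chr11:818502-822785), the triglyceride lipase of lipid droplets, was at 80.6 and 80.4 at 0 h and 98.8 and 99.0 at 1 h in the RAD21 line, while its WT lists lay between 89.9 and 93.0. Its change was 1.42 ± 0.12 (adjusted p = 1.33e-05, limma). The bidirectional member of BOLA2B and SLX1A (chr16:30201847-30207598, starts 178 bp apart) was at 71.7 and 70.1 at 0 h and 96.9 and 97.8 at 1 h, a change of 1.39 ± 0.12 (adjusted p = 1.33e-05). Both genes have near-identical copies on chromosome 16, so the placement of their reads is uncertain. TONSL/VPS28 (chr8:145647230-145671235) was at 79.2 and 79.3 at 0 h and 98.4 and 98.2 at 1 h, a change of 1.31 ± 0.11 (adjusted p = 1.42e-05), and FANCA changed by 1.62 ± 0.12 (adjusted p = 9.54e-06).

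CHAC1 (chr15:41244239-41246727), a glutathione-degrading target of the integrated stress response, was at 96.6 and 96.4 at 0 h and 42.8 and 49.3 at 1 h in the RAD21 line. In WT it was at 90.1 and 90.5, 74.8 and 68.9, and 62.3 and 63.1 at 0, 1 and 10 h, so it was lower after Nutlin3a in both lines. Its change in the RAD21 line was −1.91 ± 0.11 (adjusted p = 4.85e-06, limma). C2orf81/WDR54 (chr2:74647501-74649855, starts 110 bp apart), whose X-box is printed above, was at 96.8 and 94.8 at 0 h and 49.2 and 44.4 at 1 h, against 23.8 to 55.3 in WT, a change of −1.82 ± 0.13. CFAP77 (chr9:135284449-135287121), for a cilium and flagellum protein, was at 97.0 and 96.7 at 0 h and 64.2 and 62.2 at 1 h, a change of −1.52 ± 0.11.

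Of the 32 members at genes of the proteasome, the protease for ubiquitin-tagged proteins, 24 were higher after 1 h in the RAD21 line and 1 was lower, with a median change of 0.54 and extremes at PSMA7 (−0.63, adjusted p = 0.0174, limma) and ADRM1 (1.03, adjusted p = 0.000259). With every list left out in turn 10 were higher and 0 lower. Their median percentile was 84.1 and 83.5 at 0 h and 92.7 and 91.8 at 1 h, and it lay between 84.5 and 88.3 in all WT lists. Replication members had 28 of 57 higher and 3 lower, with a median of 0.37, and ribosome biogenesis members 23 of 62 higher and 7 lower, from RPF2 (−1.46) to BOP1 (1.15). The spliceosome core had 18 of 48 higher and 3 lower, the mitochondrial ribosome 25 of 74 higher and 4 lower, and the cytosolic ribosome 23 of 78 higher and 6 lower, from RPL35A (−1.002, adjusted p = 0.000146) to RPL14 (1.25, adjusted p = 2.52e-05). Chaperonin and heat shock members had 17 of 40 higher and 6 lower, with HSF1, the heat shock transcription factor, at 1.15.

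Immediate early genes, which encode factors induced within minutes of a stimulus, had 0 of 33 members higher and 12 lower, with a median of −0.29, from FOS (−1.12, adjusted p = 0.000239, limma) to FOSL1 (0.62, adjusted p = 0.102). With every list left out in turn 4 were lower and 0 higher. Integrated stress and unfolded protein response members had 11 of 39 lower and 5 higher, from CHAC1 to CREBRF (0.75, adjusted p = 0.00269). Aminoacyl-tRNA synthetases had 10 of 32 lower and 7 higher, with CARS1 at −1.42 (adjusted p = 4.44e-05), and cholesterol synthesis 9 of 29 lower and 4 higher. Members at p53 target genes had 15 of 45 higher and 5 lower, with AEN at 2.02 (adjusted p = 4e-05), MDM2 at 0.62 (adjusted p = 0.0131), POLH at 0.90 (adjusted p = 0.000305) and CDKN1A at 0.26 (adjusted p = 0.258).

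**Figure D3:**
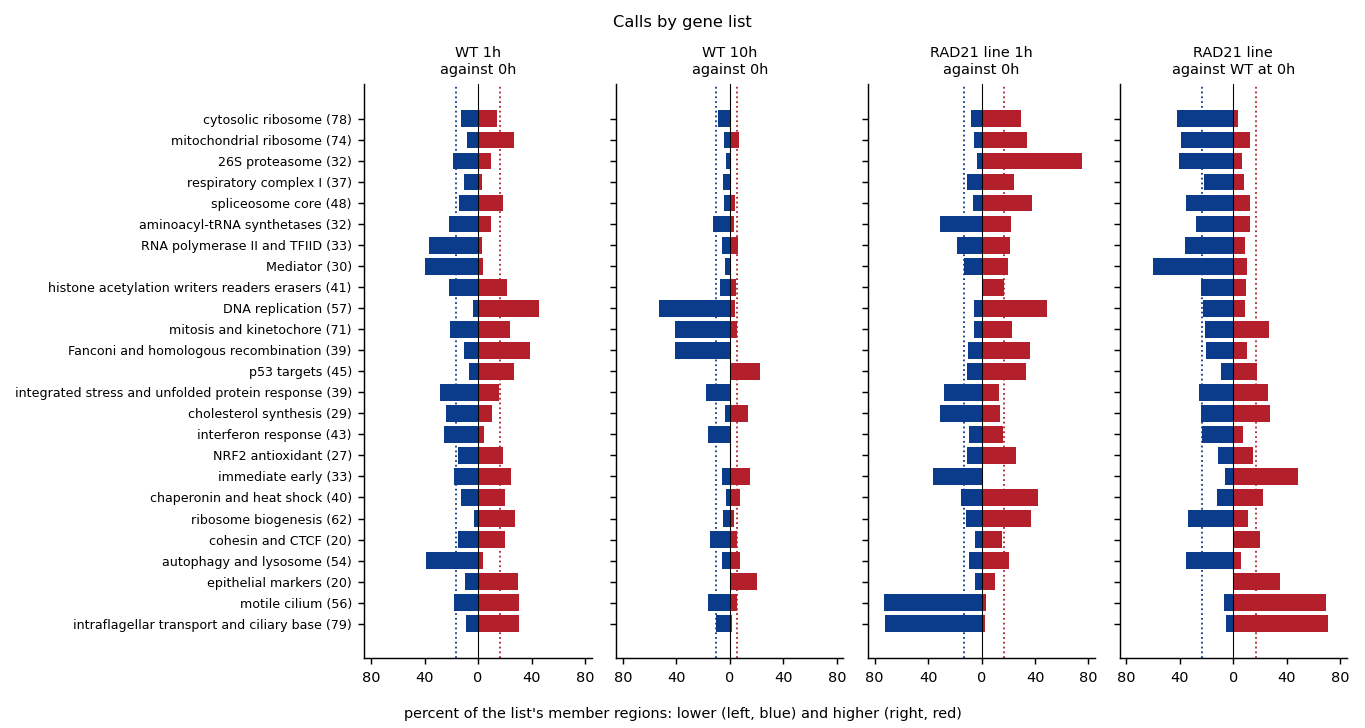
Percent of the member regions of each gene list (y axis, with the number of regions in brackets, for the larger lists) that were lower (left, blue) or higher (right, red) at an adjusted p under 0.05 in each comparison, with dotted lines at the share over all members. The ciliary lists were drawn up after leading members had been seen. They were lower at 1 h in the RAD21 line (41 of 56 and 57 of 79) and higher in that line than in WT at 0 h (39 of 56 and 56 of 79). In WT the replication list had 26 of 57 members higher at 1 h and 30 of 57 lower at 10 h.

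Among bidirectional members 250 were higher (22.1%) and 217 lower (19.2%) at 1 h in this line, and among single members 1457 (16.2%) and 1107 (12.3%). Members of 4000 bp or more had 595 higher and 244 lower, with a median of 0.177, and members under 1000 bp had 4 higher and 26 lower, with a median of −0.271. By length in the WT lists alone, which this comparison does not use, the widest of 4 equal groups had 633 higher and 292 lower and the narrowest 229 and 402. Ranked by fold enrichment, 0 members passed in limma, with 1353 at an unadjusted p under 0.05, and the median of the widest class was 0.163.

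The 1 h changes of the lines share no list, and their calls overlapped in part. Both come from the same fit with the same estimate of spread for a region, so the calls are not independent. Of the members higher at 1 h, 466 were higher in both lines. Of those higher in WT, 26.5% were higher in the RAD21 line, against 17.0% of all members. Of those higher in the RAD21 line, 25.9% were higher in WT, against 16.6% of all members. A further 269 members higher in WT (15.3%) were lower in the RAD21 line, against 13.1% of all members. Of the members lower at 1 h, 305 were lower in both. Of those lower in WT, 17.2% were lower in the RAD21 line, against 13.1% of all members. Of those lower in the RAD21 line, 22.0% were lower in WT, against 16.7% of all members. A further 211 lower in WT (11.9%) were higher in the RAD21 line, against 17.0% of all members.

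At 0 h, 1819 members were higher in the RAD21 line than in WT (17.1%, against 16.8% of all regions tested) and 2441 lower (23.0%, against 20.7%). Of the 2 ciliary lists, drawn up after leading members had been seen, 39 of 56 and 56 of 79 members passed as higher in the RAD21 line. This comparison shares its WT lists with the Nutlin3a comparisons in WT and its RAD21 lists with that in the RAD21 line, and both WT lists lacked the word input in their peak names. With the form of the peak name in the fit, which then rests on the WT 1 h lists, 1519 members were higher and 1435 lower (11.8% and 13.2% of all regions tested). Ranked by fold, 1258 were higher and 1087 lower, and ranked among all peaks 2662 and 1100.

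SPACA6 (chr19:52190387-52197262), for a sperm membrane protein, was at 22.4 and 24.0 in WT and 93.0 and 93.3 in the RAD21 line at 0 h, a difference of 2.22 ± 0.11 (adjusted p = 1.83e-07, limma). The bidirectional member of GLT8D1 and SPCS1 (chr3:52738082-52741834, starts 50 bp apart) was at 43.8 and 48.8 in WT and 99.7 and 99.1 in the RAD21 line, a difference of 2.64 ± 0.14 (adjusted p = 2.87e-07), and C2orf81/WDR54 differed by 2.45 ± 0.13. In all of these the lists of the lines did not overlap at 0 h. Lower in the RAD21 line were an internal start of EPS8 (chr12:15814689-15816849), at 62.9 and 61.9 in WT and 5.29 and 4.11 in the RAD21 line, with −1.99 ± 0.13 (adjusted p = 3.96e-07), and NCOA4 (chr10:51564452-51567708), the ferritin autophagy receptor, at 88.4 and 86.5 and at 48.4 and 41.9, with −1.27 ± 0.12 (adjusted p = 4.84e-06). METTL13 (chr1:171749511-171751992) and CRELD1 (chr3:9973866-9976501) differed by −1.20 ± 0.11 and −1.24 ± 0.12, from 96.5 and 96.7 in WT to 71.7 and 74.9 for METTL13 and from 91.3 and 93.5 to 57.5 and 57.8 for CRELD1.

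The ciliary lists were drawn up after WDR54, CFAP77 and other leading members had been seen, and they describe a pattern noticed in these data. Of 56 members at genes of motile cilia and flagella, 39 were higher and 4 lower in the RAD21 line than in WT at 0 h, with a median difference of 0.96 and extremes at RFX5 (−0.92), which is better known as a regulator of MHC class II genes, and DNAL1 (2.48, adjusted p = 3.07e-07, limma), a dynein light chain gene. Of 79 members at genes of intraflagellar transport and the ciliary base, 56 were higher and 4 lower, with a median of 0.89, from INVS (−0.72) to TMEM67 (2.97 ± 0.26, adjusted p = 3.76e-06), a transition zone gene. With every list left out in turn, 36 and 2 of the first and 47 and 2 of the second list remained. At 1 h in the RAD21 line these lists had 2 higher and 41 lower, and 2 higher and 57 lower, with medians of −0.85 and −0.82. The strongest fall in the second list was at TTC26 (−2.01, adjusted p = 0.000302), and the highest values in the first and second list were at DNAH3 (0.49, adjusted p = 0.024) and IFT25 (0.94, adjusted p = 6.81e-05).

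The median percentile of the motile cilium members was 61.9 and 63.8 at 0 h, 71.9 and 57.1 at 1 h and 56.4 and 54.7 at 10 h in WT, and 92.7 and 91.1 at 0 h and 67.2 and 61.8 at 1 h in the RAD21 line. That of the ciliary base members was 60.1 and 61.8, 71.4 and 62.1, 59.1 and 57.8, 87.5 and 89.3, and 71.3 and 67.7 in the same order. Both lists thus stood apart in the RAD21 0 h lists, and the RAD21 1 h lists lay near those of WT. Compared at 1 h, 705 members were higher in the RAD21 line than in WT and 574 lower, where 5.68% and 6.15% of all regions tested were. Of the motile cilium members 2 were higher and 4 lower, and of the ciliary base members 4 and 4. With the lists named with input alone, 1257 members were higher and 830 lower (9.45% and 8.89% of all regions tested), in a fit where WT 1 h is again 1 list whose spread is taken from the other groups.

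Members with an X-box in the promoter, a motif that was looked for after the ciliary members had been seen, are described for the same comparisons. The 187 such members (201 genes) had 132 higher (70.6%) and 9 lower when the RAD21 line was compared with WT at 0 h, and 6 higher and 118 lower (63.1%) after 1 h of Nutlin3a in the RAD21 line. Of these, 111 and 88 held with every list left out in turn. Their median percentile was 90.1 and 89.6 in the RAD21 0 h lists and between 64.1 and 72.8 in the others. At 1 h the lines differed at 11 higher and 7 lower of them, with a median difference of 0.029. The X-box lay a median of −76 bp from the start (quartiles −142.5 and −13.5 bp). Of the 201 genes 25 (12.4%) were in the ciliary lists, and 18.5% of the 135 ciliary genes at members had the motif. The X-box was found in 1.49% of all coding promoters and 1.71% of those of members, in 7.12% of those of members higher in the RAD21 line at 0 h and in 0.33% of those lower.

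**Figure D4:**
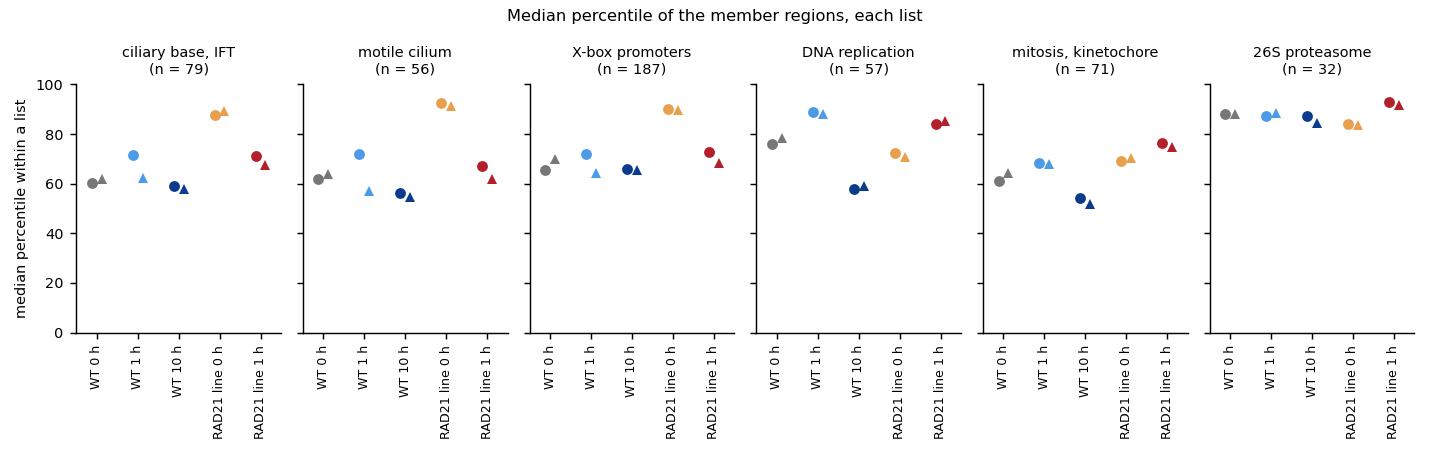
Median percentile within each list (y axis, percentile of −log10 p among the 18757 shared regions) over the member regions of each set, with 1 point per list grouped by line and time on the x axis and shaped by replicate. The ciliary and X-box sets stand highest in the RAD21 0 h lists, the replication set rises to 88.9 and 88.0 at 1 h and is at 57.7 and 59.1 at 10 h in WT, and the proteasome set is highest in the RAD21 1 h lists.

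Several other lists had more lower than higher calls in the RAD21 line at 0 h. Mediator had 18 of 30 lower and 3 higher, with MED25 at 2.71 (adjusted p = 5.01e-07, limma), and 6 lower and 3 higher in both fits. The cytosolic ribosome had 33 of 78 lower and 3 higher, with RPS27A highest at 1.22 and a median of −0.32 that was 0.41 when ranked by fold. The mitochondrial ribosome had 29 of 74 lower and 9 higher, with MRPS21 at 2.00, and the proteasome 13 of 32 lower and 2 higher, with medians of −0.20 and −0.36 that were 0.10 and 0.06 by fold. Immediate early members had 16 of 33 higher and 2 lower, with a median of 0.45 that was −0.08 with the form of the peak name in the fit. Members of 4000 bp or more had 624 higher and 302 lower, with a median of 0.122, and −0.158 with that term, and bidirectional members 222 higher (19.6%) and 279 lower (24.7%). The ciliary medians kept their sign under each of these alternatives.

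The 1 h change itself was larger (more positive) in the RAD21 line than in WT at 1539 members (14.5%, against 11.7% of all regions tested) and smaller (more negative) at 1252 (11.8%, against 11%), by the interaction of line and treatment. CREBRF (chr5:172482687-172485405) was at 90.2 in both WT 0 h lists, 40.5 and 29.9 at 1 h and 95.5 and 89.9 at 10 h, and in the RAD21 line at 59.1 and 59.7 at 0 h and 80.9 and 86.6 at 1 h. It was lower at 1 h in WT and higher at 1 h in the RAD21 line, a difference in change of 2.43 ± 0.21 (adjusted p = 3.09e-05, limma). NCOA4 differed by 1.70 ± 0.16 (adjusted p = 3.7e-05) and IRF9 by 1.80 ± 0.18 (adjusted p = 4.53e-05). MYNN (chr3:169489285-169492794) was at 98.5 in both WT 0 h lists and 84.8 and 84.7 at 1 h, and at 87.1 and 86.5 and then 95.9 and 95.3 in the RAD21 line, a difference of 1.73 ± 0.17 (adjusted p = 4.17e-05).

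Members with the opposite difference were ciliary in part. C2orf81/WDR54 differed by −2.64 ± 0.19 (adjusted p = 1.37e-05, limma). SPAG1 (chr8:101169502-101171149), a dynein assembly factor, was at 17.5 and 24.8 and then 69.5 and 55.5 in WT at 0 and 1 h, and at 95.7 and 93.4 and then 48.5 and 43.5 in the RAD21 line, with −2.84 ± 0.21 (adjusted p = 1.56e-05). IRAK1BP1 (chr6:79576287-79578264) was at 35.3 and 32.7 and then 71.7 and 57.3 in WT, and at 97.0 and 95.6 and then 49.4 and 41.9 in the RAD21 line, with −2.69 ± 0.20 (adjusted p = 1.89e-05). The interaction had 4 higher and 38 lower of the motile cilium members, and 4 higher and 50 lower of the ciliary base members, with TMEM67 at −3.49 (adjusted p = 5.94e-05).

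Proteasome members had a larger change in the RAD21 line at 17 of 32 and a smaller one at 0, with a median of 0.61, of which 9 held with every list left out in turn, and PSMC2 was the highest (1.24, adjusted p = 0.00106, limma). Autophagy and lysosome members had 19 of 54 larger and 2 smaller, with a median of 0.43, from NBR1 (−1.26) to ULK1 (1.55, adjusted p = 5.42e-05), the kinase that starts autophagy. Immediate early members had 1 larger and 8 smaller, and ASNS, the asparagine synthetase of the stress response, differed by −2.07 (adjusted p = 0.000143). Among all peaks of the lists, 822 members had a larger and 1300 a smaller change. Ranked by fold, 0 members passed in limma, with 1444 at an unadjusted p under 0.05.

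H3K4me1 at the members changed at few of 12940 regions. At 1 h 19 were higher (0.147%, against 0.291% of all 60476 H3K4me1 regions tested) and 55 lower (0.425%, against 0.304%), and at 10 h 13 were higher (0.100%, against 0.615%) and 5 lower (0.0386%, against 0.0231%). At 1 h the region at RRAS and SCAF1 (chr19:50133097-50144409) was higher by 1.19 ± 0.18 (adjusted p = 0.00774, limma), and those at SERF2 and ZFPM1 had changes of −1.90 ± 0.19 (adjusted p = 0.000529) and −1.97 ± 0.20 (adjusted p = 0.000549). At 10 h ACTB, the gene of beta-actin, had 1.26 ± 0.17 (adjusted p = 0.003) and CBL, a ubiquitin ligase, 1.29 ± 0.21 (adjusted p = 0.00738), while TRIM59 had −1.35 ± 0.20 (adjusted p = 0.00428). Ranked by fold, 1 region passed at 1 h and 0 at 10 h.

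Promoters of members were searched for short motifs beside those of the other coding genes. In the window from 250 bases before to 50 after the start, searched on both strands, the GC box was found in 77.3% of 11739 promoters at members and 38.8% of 8046 others, and the TATA box (TATAAA) in 4.52% and 17.1%. The ETS site was found in 21.2% and 3.64%, the NRF1 site (GCGCATGCG) in 4.11% and 0.66% and the YY1 site (AAGATGGCG) in 4.56% and 0.32%. Over all 19785 coding promoters these shares were 61.6%, 9.63%, 14.1%, 2.71% and 2.84%. The median GC content was 67.0% at members and 56.3% at the others, and the observed over expected CpG ratio 0.87 and 0.37. Bidirectional members had more ETS sites (29.5%), NRF1 sites (5.13%), YY1 sites (5.98%) and CCAAT boxes (40.1%) than single ones (19.1%, 3.86%, 4.16% and 35.0%), with a GC content of 65.0% against 67.7%.

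Motif shares were also taken by the direction in which members moved. The E2F site was found in 8.67% of all coding promoters and 11.2% of those of members, in 18.4% of those lower at 10 h in WT, and in 32.0% of those lower at 10 h in both fits. For the CHR the latter shares were 11.7% and 20.3%, with 11.5% over all coding promoters and 8.47% at members. Of the 1216 members with an E2F site, 199 were lower and 35 higher at 10 h, and 164 were lower and 266 higher at 1 h in WT. The cyclic AMP response element (CRE, TGACGTCA), found in 2.71% of all coding promoters and 3.65% of those of members, was in 6.08% of those lower at 1 h in WT and 2.28% of those higher, and 111 of 389 members with it (28.5%) were lower and 39 higher. The ETS site was in 27.8% of promoters lower at 1 h in WT and 17.3% of those higher. The E-box (CACGTG), in 8.76% of all coding promoters and 10.6% of those of members, was in 14.0% of those higher at 1 h in the RAD21 line, and the E2F site in 15.0% of them.

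**Figure D5:**
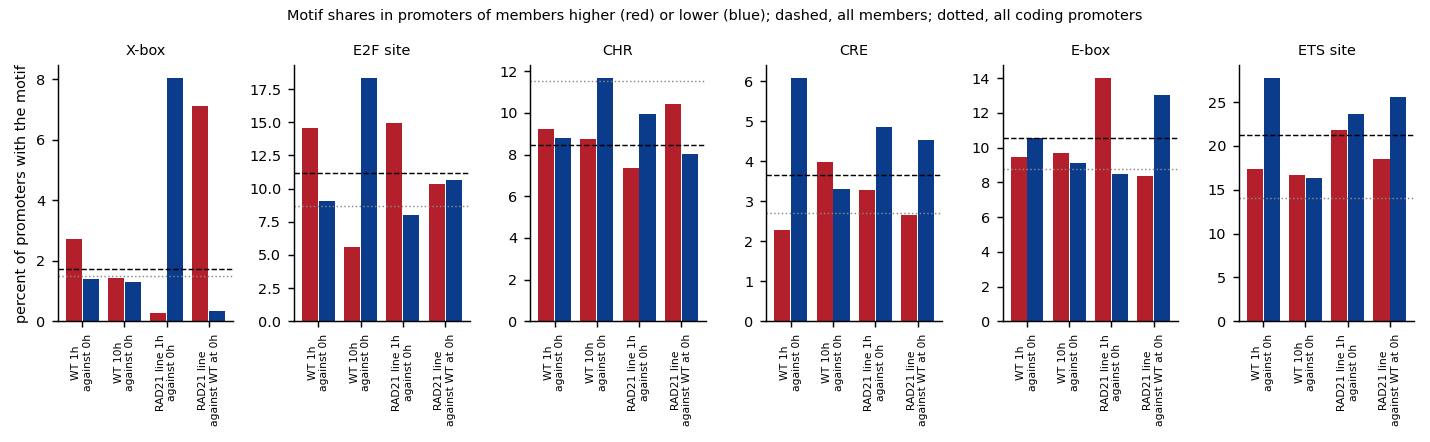
Percent of promoters with each motif (y axis, a separate scale for each motif) among members higher (red) or lower (blue) in each comparison, with the share over all members as a dashed line and over all coding promoters as a dotted line. The X-box was in 8.05% of promoters lower at 1 h in the RAD21 line and 0.29% of those higher, and the E2F site in 18.4% of those lower at 10 h in WT.

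Checked against cell type markers, all 20 epithelial marker genes had a member, among them EPCAM and CDH1, whereas 5 of 18 intestinal markers, 1 of 18 blood markers (CD68), 3 of the mesenchymal and endothelial markers, 6 of 18 neuronal markers and 1 of 18 liver and muscle markers (CPS1) did. The share over all coding genes was 59.3%, above that of every list but the epithelial one. Some of these markers rest on shared regions or other than the canonical start: the member at CD68 also holds the start of EIF4A1, that at CPS1 holds the canonical start of LANCL1 alone, and those at ACTA2, shared with FAS, and DLG4 hold no canonical start. At respiratory complex I 16 of 37 members (43.2%) were bidirectional and at the mitochondrial ribosome 27 of 74 (36.5%), against 10.6% over all members.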

How the data were processed

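H3K27ac peak lists of 10 libraries and H3K4me1 peak lists of 6 libraries were used, out of 26 samples. The 10 input libraries were not analysed here. The authors trimmed paired-end reads (Trim Galore 0.6.6), mapped them to GRCh37.p13 (Bowtie2 2.3.2), removed duplicate, low-quality and blacklisted reads and called peaks per library against input with MACS2 2.2.7.1, as narrow peaks (H3K27ac) or broad peaks (H3K4me1). The deposited −log10 p and −log10 q of a peak, its fold enrichment over the local background (a ratio) and a whole-number score made from −log10 q come from that caller. The score was not used here. Strength depends on library depth and input, so only ranks within a list were compared.

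Each region took the −log10 p of its strongest peak in a list. Ranks over the 18757 regions called in all 10 lists were turned into normal scores and fitted with limma 3.58.1 (R 4.3.3, group means, trended eBayes). H3K4me1 was treated alike over the 60476 of 110276 merged regions called in all 6 lists. Errors are SEs from these fits. A permutation test of 2 lists against 2 could not go below 0.333. On simulated ranks with 200 of 18757 regions changed by 1, calls recovered 66% for WT 1 h, 68% for WT 10 h and 66% for the RAD21 line at 1 h. Start sites were those of GENCODE v44 lifted to GRCh37, where the authors used an older Ensembl release. Of 1274 gene list entries 1269 were matched, 28 of them by an older symbol in a RefSeq table. Named were, per comparison and direction, the 4 members with the smallest p, which in comparisons within WT or between lines also had to pass with the form of the peak name as a term, then the strongest, the longest and shortest, those at the threshold of the rule and the extremes of each gene list. Some members under this rule are not reported here. The p53 genes with their own values were picked from their list as well known. The members, gene lists and comparisons were chosen with earlier results of these data known. Samples with the same replicate number did not deviate together (correlations of −0.0501 to 0.0453 over 10 pairs).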

Additional observations from a re-analysis of the deposited data

Results flagged for a closer look

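The 1 h change of members differed between the lines by the interaction term of line and treatment at 2791 members (limma, adjusted p under 0.05, all 10 lists), and at 0 members when regions were ranked by fold, where 1444 had an unadjusted p under 0.05. Among those with the smallest p, the change was larger in the RAD21 line at CREBRF (2.43), NCOA4 (1.70), MYNN (1.73) and IRF9 (1.80), and smaller at C2orf81/WDR54 (−2.64), SPAG1 (−2.84) and IRAK1BP1 (−2.69). At these members the 0 h and 1 h lists did not overlap in either line, except IRF9 in the RAD21 line. WT 0 h and WT 1 h replicate 1 lack the word input in their peak names and the other lists of this comparison carry it. Passing with that form as a term was part of how these 7 were chosen. With that term WT 1 h rests on its replicate 1, so the part of the peak-name form in the remaining calls was not tested.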

How the results depend on the processing

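Counts of called members depended on the measure that was ranked. By fold enrichment they were 0 at 1 h in WT (3534 by −log10 p), 0 at 1 h in the RAD21 line (3187), 0 for the difference in change (2791), 2345 between the lines at 0 h (4260), and for H3K4me1 1 at 1 h (74) and 0 at 10 h (18). At 10 h in WT, where 1681 members were called, 570 were called with the form of the peak name as a term, 1101 with eBayes without a trend and 3708 with ranks among all peaks. At 1 h in the RAD21 line 4848 were called with that term. With a −log10 q of at least 5 in every list the H3K4me1 counts were 45 and 2. Width classes by median covered length held 814, 4405, 4311 and 1081 members. The cause of these shifts was not tested.

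With 1 list left out, counts ran from 1648 to 5007 at 1 h and 319 to 3755 at 10 h in WT, 1467 to 4857 at 1 h in the RAD21 line, 2542 to 5826 between the lines, 1596 to 4595 for the difference in change, and 3 to 44 and 0 to 13 for H3K4me1. Lists that moved a count by over 1.5 times were the following. WT 0 h replicates 1 and 2 gave 1648 and 1758 at 1 h and 391 and 319 at 10 h in WT, 2542 and 2572 between the lines, and 1596 and 1713 for the difference in change. WT 1 h replicates 1 and 2 gave 3746 and 3755 at 10 h in WT and 4852 and 4857 in the RAD21 line, and replicate 1 gave 4595 for the difference in change. WT 10 h lists gave 540 and 377 at 10 h. RAD21 0 h lists gave 1804 and 1782 at 1 h in that line, 2726 and 2803 between the lines and 1798 and 1841 for the difference in change, and RAD21 1 h lists 1784 and 1467, and 1738 and 1608. For H3K4me1 at 1 h the 0 h lists gave 3 and 8, the 1 h lists 8 and 4 and the 10 h lists 44 and 43, and at 10 h the 0 h lists gave 9 and 4 and the 10 h lists 0 and 0. The number of members with 9 lists was 10616 to 10657. Under the replicate block the counts were 3436, 1606, 3100, 4188 and 2646 in the order of the text, and 86 and 18 for H3K4me1, each within 1.5 times of the count without it. The direction with more calls turned in some settings. Among all peaks it turned at 10 h in WT (575 higher and 1106 lower became 3529 and 179), between the lines (1819 and 2441 became 2662 and 1100) and for the difference in change (1539 and 1252 became 822 and 1300). By fold it turned at 10 h in WT (1036 and 1033) and between the lines (1258 and 1087), and for the latter also with the peak-name term (1519 and 1435). Without RAD21 1 h replicate 2 it turned at 1 h in that line (1800 and 1387 became 699 and 768) and for the difference in change (782 and 826), as it did without WT 0 h replicates 1 and 2 for the latter (793 and 803, 847 and 866). For H3K4me1 at 10 h it turned without the 0 h replicate 1 (13 and 5 became 3 and 6). At 1 h in WT the calls were near even (1761 and 1773). Medians of some gene lists and widths changed sign, as given beside them. Of the 40 members chosen by smallest p, 4 per comparison and direction, all held with the block and each list left out. Passing with the peak-name term was part of the choice except at 1 h in the RAD21 line. By fold rank 16 passed, 24 did not and 0 reversed. The 16 belonged to the 10 h change in WT and the 0 h difference between lines, both wholly split by the form of the peak name. The 24 were all those chosen for the 1 h change of either line or for the difference between these changes. By fold rank 0 members passed there. Bidirectional members numbered 1031 to 1260 under other distances and transcripts. Read depth could not be known from peak lists.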
